A study of Homo sapiens with 4 samples.

Results

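HOX genes encode the homeodomain transcription factors that give cells along the body axis their positional identity. The 39 HOX genes were taken as all protein-coding rows of the deposited table whose symbol is HOX, a cluster letter from A to D and a paralog number, out of 19951 protein-coding genes and 58735 genes in all. They comprised 11 HOXA, 10 HOXB, 9 HOXC and 9 HOXD genes. Levels are FPKM values, fragments scaled by exon length and by sequencing depth, which allow genes of different length to be compared. The RNA came from HFL1, a line derived from human fetal lung and described as fibroblasts, and the study asked what calumenin, a calcium-binding protein of the endoplasmic reticulum encoded by CALU, does in senescence and fibrosis signalling. There were 2 libraries of HFL1 cells labelled KO for calumenin and 2 of HFL1 cells labelled WT, with no treatment or time named in the labels. The sources used here do not say how the KO was made, whether it is 1 clone, or whether replicates were grown as separate cultures. The p-values therefore reflect the spread among these 4 libraries alone, and that spread may be technical.

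The libraries held 16622382 to 17699349 recovered reads in KO and 16173899 to 17715774 in WT. CALU (chr7:128739292-128771807, GRCh38) had 6.59 and 5.95 FPKM in the KO libraries, against 87.7 and 81.8 FPKM in the WT libraries, 13.5-fold lower in KO (log2 change -3.56, SE 0.14, limma adjusted p = 0.00154). The label of fibroblast was not borne out by most of its markers: 9 of 16 stayed below 1 FPKM in every library. Among these, COL1A2 and POSTN had no read in any library, and DCN and FAP stayed at or below 0.00871 FPKM. The other 7 were abundant enough to test, with COL1A1 at 0.234 and 0.280 FPKM in WT, against 3.04 and 3.16 FPKM in KO. Of 8 lung mesenchyme markers 1 was tested, and TBX5, FGF10 and WNT2 had no read in any library. Of 8 lung epithelium markers AGER alone was tested and was not called, and the other 7 summed to at most 1.46 FPKM in any library. The summed level of 15 epithelial markers, led by KRT8, KRT18 and KRT7, was 1888 and 2256 FPKM in KO and 1001 and 1141 FPKM in WT. Without KRT8 the other 14 summed to 1157 and 1330 FPKM in KO and 652 and 717 FPKM in WT. These markers moved both ways: of 9 tested, 4 were called higher in KO (CDH1, KRT8, KRT18 and KRT19) and 2 lower, and KRT7 was not called. CDH1 had 39.9 and 36.9 FPKM in KO, against 6.79 and 8.55 FPKM in WT. The 2 called lower, CLDN4 and KRT15, were tested through their WT values alone, and GRHL2 had no read in any library. The sum of the 16 fibroblast markers was 588 and 838 FPKM in KO and 1068 and 1444 FPKM in WT, but without S100A4, which was not called, the other 15 summed to 139 and 115 FPKM in KO and 135 and 92.2 FPKM in WT, and the groups overlapped. Fibroblast markers moved both ways, with COL1A1 called higher in KO, tested through its KO values alone, and NT5E and TWIST2 called lower. Of 6 endothelial markers none was tested and ERG had no read. Of 6 leukocyte markers CD14 alone was tested, with 5.84 and 6.41 FPKM in KO and 19.4 and 16.9 FPKM in WT, called lower in KO (log2 change -1.42, SE 0.14, adjusted p = 0.00457), and the other 5 summed to at most 0.801 FPKM in any library. The part of these marker differences in the HOX results was not tested, and in bulk RNA fewer cells of a type and less RNA per cell cannot be told apart.

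In vertebrate embryos the HOX clusters are opened in order, so that genes at the 3′ end of a cluster, with low paralog numbers, are used toward the head and genes at the 5′ end toward the tail, the distal limb, the hindgut and the genital tract. Adult cells, connective tissue cells above all, keep much of the pattern of the place they came from. In the mouse the genes of paralog group 5 act in the lung mesenchyme. Below, paralog groups 1 to 3 are called anterior, 4 to 8 central and 9 to 13 posterior.

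The homeobox, the 180 bases that encode the DNA-binding domain, was found in a GENCODE 29 transcript of every one of the 39 genes. Over these bases, the 42 pairs within a paralog group had a median identity of 81.7%, and the 699 pairs across groups one of 60.6%. No pair was above 91.1%, and the longest run of identical bases in any pair was 51.

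HOX transcripts from the anterior to the posterior end of the series were present in the same libraries. Of the 39 genes, 22 reached 1 FPKM in at least 2 libraries and were tested, 8 in HOXA, 7 in HOXB, 6 in HOXC and 1 in HOXD. They comprised 4 of 8 anterior, 11 of 15 central and 7 of 16 posterior genes. In all 4 libraries 19 genes stayed at or above 1 FPKM. Of the others, 3 had no read in any library, namely HOXB1, HOXC12 and HOXD12. Paralog groups 11 and 12 had no tested member.

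HOXB held the most HOX RNA. Its summed level was 58.9 and 70.8 FPKM in the KO libraries, against 49.0 and 57.5 FPKM in the WT libraries. Every KO library was above both WT libraries, with the KO replicate 1 sum close to that of WT replicate 2. The HOXA sum was 20.2 and 20.8 FPKM in KO, against 14.8 and 16.5 FPKM in WT, so the groups did not overlap there either. HOXC ran the other way, with sums of 16.6 and 17.9 FPKM in KO, against 27.7 and 26.6 FPKM in WT. HOXD was low throughout, at 2.89 and 3.39 FPKM in KO and 3.67 and 3.97 FPKM in WT. Both KO sums of HOXD lay below both WT sums, while its only tested gene, HOXD8, overlapped between the groups. Over the 39 genes the sum was 98.6 and 112.9 FPKM in KO, against 95.2 and 104.6 FPKM in WT, and here the groups overlapped. Sums are given as values without a test.

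**Figure D1:**
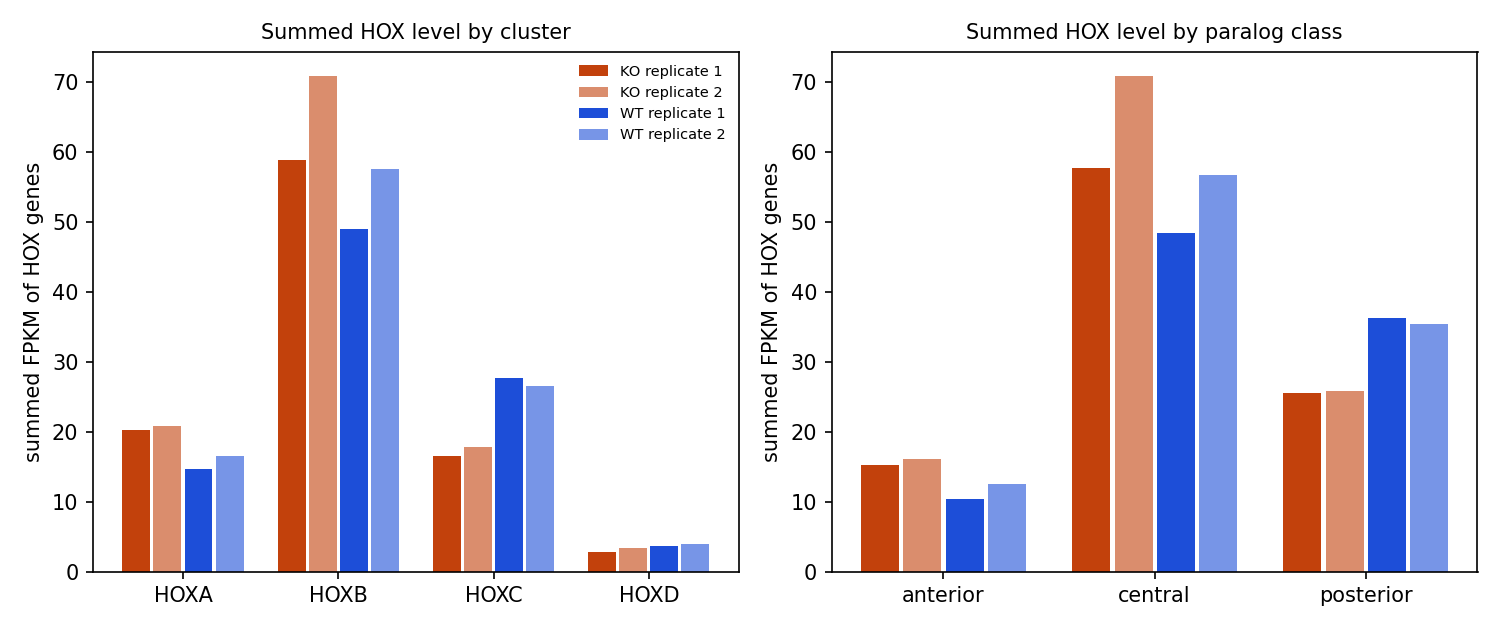
Summed FPKM of HOX genes by cluster (left) and by paralog class (right), 1 bar per library, with KO bars left of WT bars and axes starting at 0. HOXC, HOXD and the posterior class are lower in both KO libraries, HOXA, HOXB and the anterior and central classes higher. For HOXB and the central class the KO replicate 1 bar is close to that of WT replicate 2.

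By paralog class, posterior genes summed to 25.6 and 25.8 FPKM in KO, against 36.3 and 35.4 FPKM in WT. That was 25.9% and 22.9% of all HOX FPKM in KO, against 38.2% and 33.8% in WT. Anterior genes summed to 15.2 and 16.2 FPKM in KO, against 10.4 and 12.5 FPKM in WT, and central genes to 57.8 and 70.9 FPKM in KO, against 48.4 and 56.7 FPKM in WT. For central genes the KO replicate 1 sum was close to that of WT replicate 2. Much of the posterior difference lay in a single gene: without HOXC13 the posterior sum was 20.5 and 21.6 FPKM in KO and 25.4 and 25.7 FPKM in WT, still without overlap. Without HOXC13 the HOXC sum was 11.5 and 13.7 FPKM in KO and 16.7 and 16.9 FPKM in WT. By cluster, the posterior gap lay mostly in HOXC and was not shared by all clusters. Posterior HOXC genes had KO sums of 10.6 and 11.9 FPKM, below WT sums of 21.5 and 19.9 FPKM. HOXA posterior genes went the other way, with WT sums of 3.35 and 2.71 FPKM below KO sums of 4.24 and 3.61 FPKM. HOXB posterior genes differed little, with KO sums of 10.4 and 9.98 FPKM beside WT sums of 10.7 and 11.7 FPKM. HOXD posterior genes, also lower in KO, summed to at most 1.01 FPKM.

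Of the 22 HOX genes tested, 2 were called higher in KO (HOXB5 and HOXB6) and 3 lower (HOXC13, HOXC10 and HOXC6) at an adjusted p under 0.05. Those 5 are 22.7% of the 22, beside 23.3% of all 14100 genes tested, of which 12.1% were called higher and 11.1% lower. The share called was thus close to that of genes at large and does not set HOX genes apart. Both KO libraries lay above both WT libraries for 11 of the 22 genes and below for 7, with 4 overlapping, while 34.4% and 31.3% of all genes tested did so. The median log2 change was 0.17 over the 22 HOX genes and 0.03 over all genes tested. By cluster the median was 0.30 in HOXA, 0.37 in HOXB and -0.43 in HOXC. By class it was 0.47 for the 4 anterior, 0.20 for the 11 central and -0.35 for the 7 posterior genes tested. None of the anterior genes was called, and HOXA2 among them was tested through its KO values alone. An exact permutation test of 2 libraries against 2 cannot go below p = 0.333, so each call rests on the spread that limma estimates across genes.

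**Figure D2:**
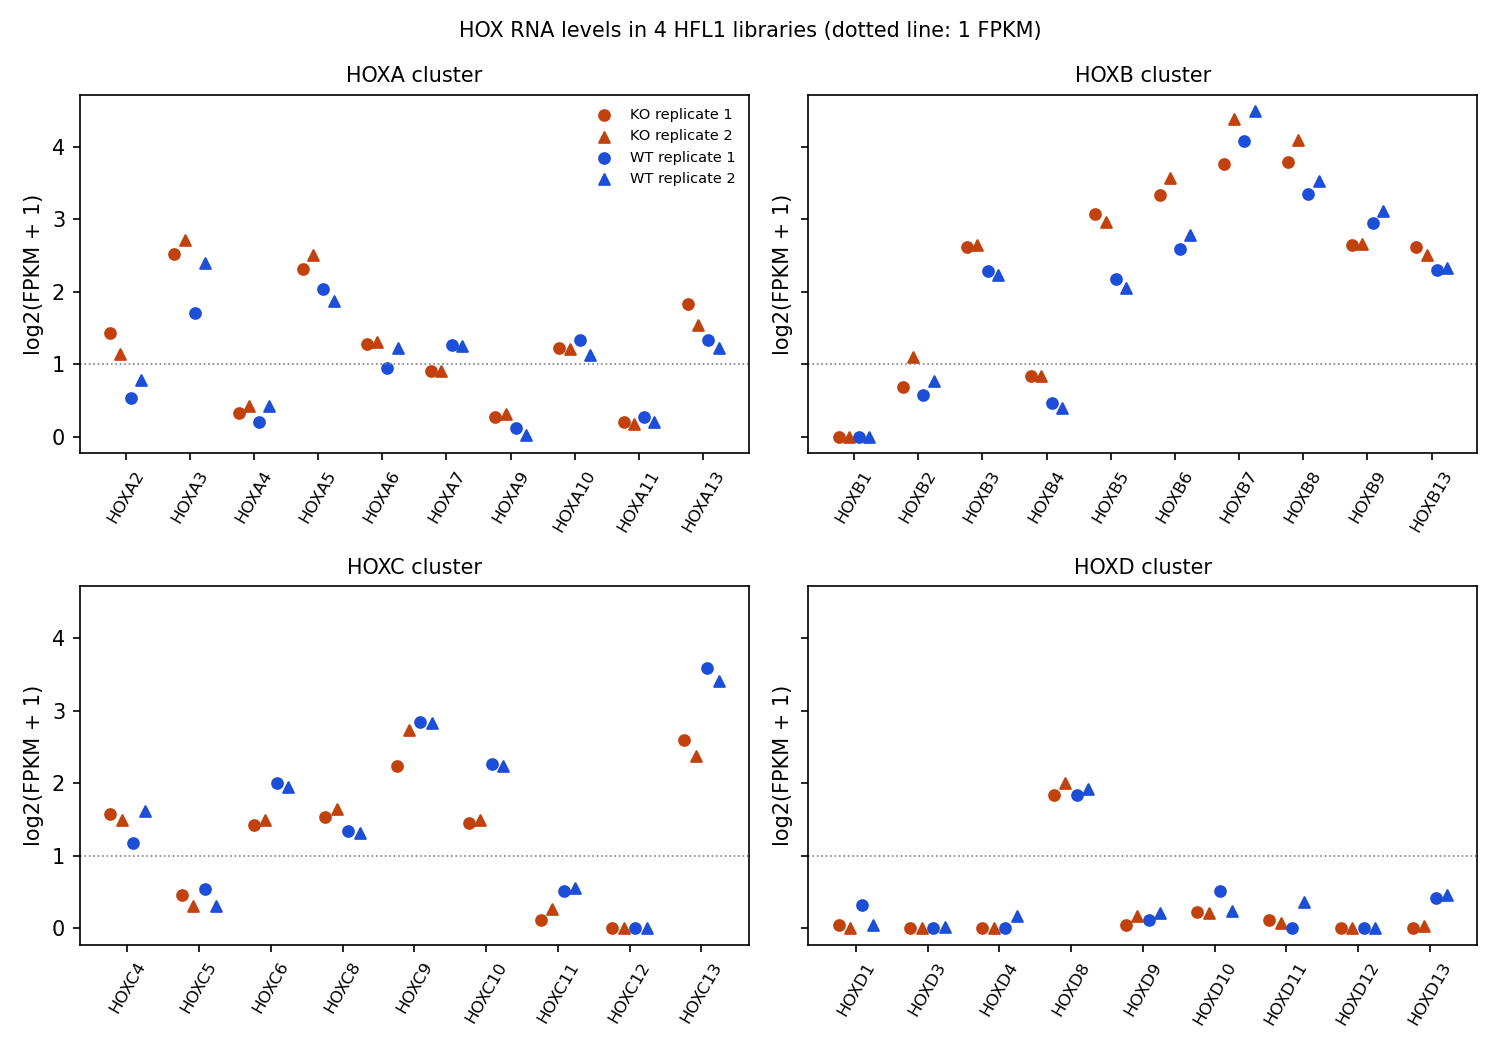
Levels of HOX genes as log2(FPKM + 1), 1 panel per cluster, ordered by paralog number; red-brown marks are KO and blue marks WT libraries, circles replicate 1 and triangles replicate 2. HOXB genes reach the highest levels, HOXD8 alone stands out in HOXD, and HOXC13 and HOXC10 are lower in both KO libraries.

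HOXB5 (chr17:48591257-48593961, minus strand), the HOXB member of the paralog group with a role in mouse lung, had 7.41 and 6.82 FPKM in KO, against 3.54 and 3.17 FPKM in WT. Both KO libraries were about 2.12-fold above WT on their means, with a gap wider than the spread within either group. Its log2 change on the log2(FPKM + 1) scale was 0.90 (SE 0.13, adjusted p = 0.0113). HOXB6 (chr17:48595751-48604992, minus strand), its neighbour, had 9.10 and 10.9 FPKM in KO, against 5.03 and 5.90 FPKM in WT. Again no library overlapped, and the log2 change was 0.76 (SE 0.15, adjusted p = 0.0234). HOXB6 shares 433 exon bases with HOXB3 on the same strand and 425 with the antisense RNA HOXB-AS3, and HOXB5 shares 73 with HOXB-AS3. The strand setting of the authors' counting was not stated, so reads over bases shared with HOXB-AS3 could belong to either partner. Reads over the bases that HOXB6 shares with HOXB3 cannot be told apart by strand under any setting.

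HOXC13 (chr12:53938765-53946544, plus strand), the last gene at the 5′ end of HOXC and known for its role in hair and nail, had 5.07 and 4.21 FPKM in KO, against 11.0 and 9.64 FPKM in WT. It was the most abundant posterior gene in WT, and in KO it lay below HOXB9, another posterior gene, in both libraries. The log2 change was -1.01 (SE 0.15, adjusted p = 0.0111), and the mean was 2.23-fold lower in KO. HOXC10 (chr12:53985065-53990279, plus strand), known in the hindlimb and lumbar region, had 1.74 and 1.81 FPKM in KO, against 3.83 and 3.72 FPKM in WT. Its replicates lay close together in both groups, and it was lower in KO by a log2 change of -0.78 (SE 0.13, adjusted p = 0.0151). HOXC6 (chr12:53990624-54030823, plus strand), a thoracic-level gene, had 1.68 and 1.83 FPKM in KO, against 3.02 and 2.86 FPKM in WT. The groups did not overlap, and with a log2 change of -0.52 (SE 0.14) its adjusted p of 0.0499 was only just under the threshold. HOXC6 shares 484 exon bases with HOXC4, which had 1.99 and 1.81 FPKM in KO and 1.27 and 2.06 FPKM in WT and was not called.

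The 5 calls were lost under some alternatives. With no filter on low values, when more genes are tested and the log2 changes stay the same, the adjusted p-values were 0.0571 for HOXB5, 0.0841 for HOXB6, 0.0585 for HOXC13, 0.0686 for HOXC10 and 0.135 for HOXC6. Without WT replicate 1 they were 0.0639, 0.168, 0.0780, 0.107 and 0.261 in the same order, and without WT replicate 2 HOXB5, HOXB6, HOXC10 and HOXC6 had 0.0820, 0.0867, 0.0873 and 0.202. Without KO replicate 2 HOXB6 had 0.0581 and HOXC6 0.0832, and without KO replicate 1 HOXC6 had 0.120. HOXC6 also had 0.0559 with a filter of 0.5 FPKM. HOXC13 was called in each of the other fits that left out 1 library (adjusted p = 0.0235 to 0.0440). The signs of the 5 changes were the same in each of these fits.

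**Figure D3:**
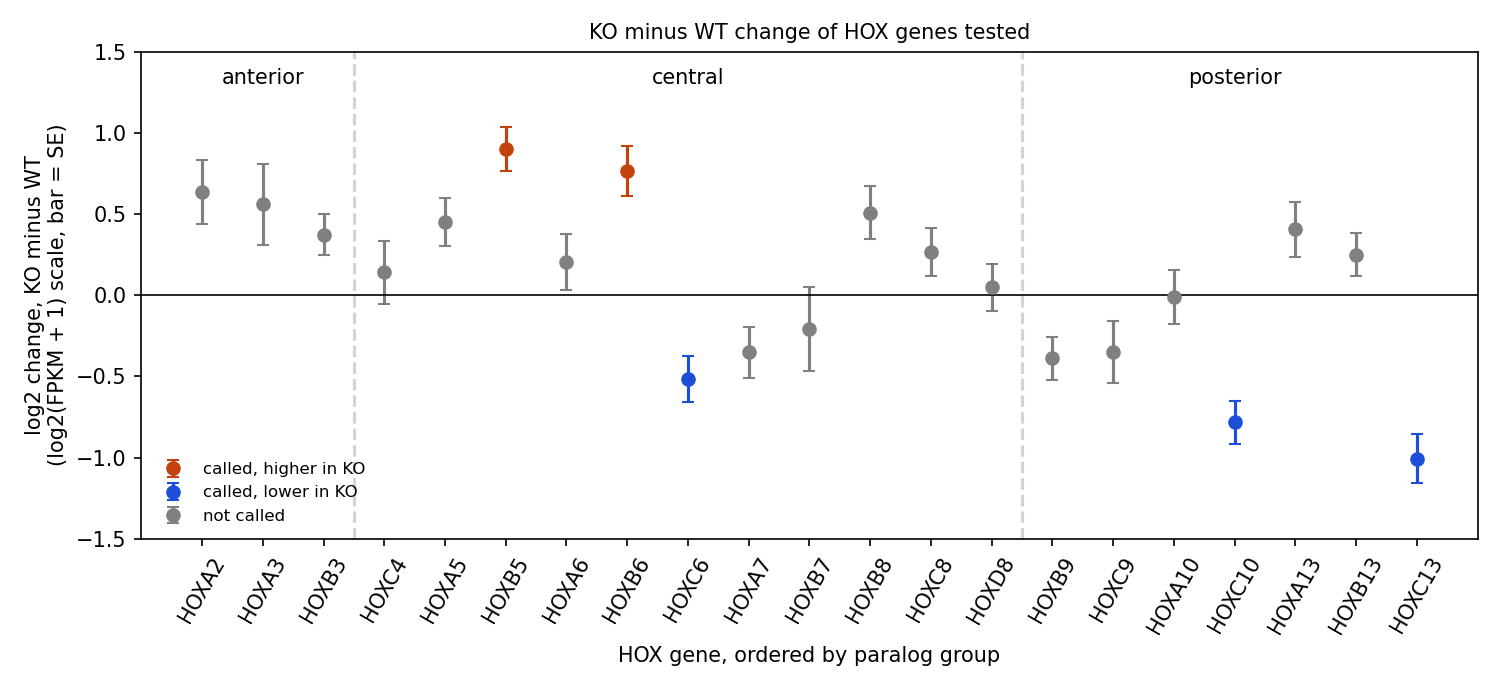
Log2 change, KO minus WT, on the log2(FPKM + 1) scale for HOX genes tested, ordered by paralog group, with bars of 1 SE; red-brown points were called higher in KO, blue points lower, grey points not called. The called genes are HOXB5 and HOXB6 above 0 and HOXC6, HOXC10 and HOXC13 below 0.

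The 2 most abundant HOX genes by mean level over all libraries, HOXB7 and HOXB8, were not among those called. HOXB7, at the 88.3rd percentile of mean level among protein-coding genes, had 12.6 and 19.9 FPKM in KO, against 15.8 and 21.5 FPKM in WT. Its groups overlapped, and in both of them replicate 2 was the higher (adjusted p = 0.596). HOXB8, at the 82.8th percentile, had 12.8 and 16.1 FPKM in KO, against 9.19 and 10.5 FPKM in WT. All KO values were above all WT values, with a log2 change of 0.51 that missed the threshold (SE 0.16, adjusted p = 0.0773). HOXB6 and HOXC13, which were called, followed at the 73.8th and 73.1st percentiles.

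Among the anterior genes, which pattern hindbrain and neck structures, limma called none, while HOXA2 and HOXB3 were under an unadjusted p of 0.05. HOXA3 had 4.72 and 5.54 FPKM in KO, against 2.26 and 4.28 FPKM in WT, with the WT libraries far apart (adjusted p = 0.163). HOXB3 had 5.15 and 5.24 FPKM in KO, against 3.87 and 3.70 FPKM in WT. It was higher in both KO libraries by a log2 change of 0.37 that missed the threshold (SE 0.13, adjusted p = 0.0881). HOXA2, known for its role in the second pharyngeal arch, had 1.70 and 1.22 FPKM in KO, against 0.446 and 0.720 FPKM in WT. Both WT libraries were under 1 FPKM and both KO libraries over it, so HOXA2 was tested through its KO values alone (log2 change 0.63, SE 0.20, adjusted p = 0.0706). It was called by limma voom on the recovered reads, with an adjusted p of 0.0363.

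Among the other central genes, HOXA5, whose loss in the mouse impairs lung development, had 3.98 and 4.68 FPKM in KO, against 3.11 and 2.68 FPKM in WT. KO was higher in both libraries by a log2 change of 0.45 that missed the threshold (SE 0.15, adjusted p = 0.0809). HOXD8, the only HOXD gene above 1 FPKM in any library, had 2.58 and 3.02 FPKM in KO and 2.56 and 2.78 FPKM in WT, which overlapped (adjusted p = 0.837). HOXC8 had 1.90 and 2.13 FPKM in KO and 1.54 and 1.49 FPKM in WT, and HOXA6 1.42 and 1.47 FPKM in KO and 0.938 and 1.33 FPKM in WT. HOXA7 had 0.876 and 0.886 FPKM in KO, against 1.41 and 1.39 FPKM in WT, and passed the filter through its WT values alone. None of these 3 was called (adjusted p = 0.243 for HOXC8, 0.434 for HOXA6 and 0.160 for HOXA7), and 62.5% of the exon bases of HOXA7 are shared with the antisense RNA HOXA-AS3.

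Posterior genes outside HOXC lay on both sides of WT. HOXB9 had 5.24 and 5.30 FPKM in KO, against 6.75 and 7.71 FPKM in WT, lower in both KO libraries with a log2 change of -0.39 (SE 0.13, adjusted p = 0.0905). HOXB13, known for the prostate and the distal colon, had 5.15 and 4.68 FPKM in KO, against 3.93 and 4.01 FPKM in WT. HOXA13, a gene of the digits and the hindgut, had 2.55 and 1.92 FPKM in KO, against 1.52 and 1.34 FPKM in WT. These members of group 13 were thus higher in both KO libraries, the opposite side from HOXC13, without being called (adjusted p = 0.218 for HOXB13 and 0.139 for HOXA13). The remaining member of the group, HOXD13, was too low to test and lay on the side of HOXC13. HOXC9 had 3.74 and 5.63 FPKM in KO, against 6.20 and 6.10 FPKM in WT, where the KO libraries lay far apart (adjusted p = 0.235). HOXA10, which patterns the uterus and the hindlimb, had 1.34 and 1.32 FPKM in KO and 1.52 and 1.18 FPKM in WT, an overlap (adjusted p = 0.967).

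The other 17 genes were too low to test. HOXB2 was closest to the limit, with 0.611 and 1.15 FPKM in KO and 0.492 and 0.705 FPKM in WT, and so reached 1 FPKM in a single library. HOXB4 had 0.790 and 0.796 FPKM in KO, against 0.379 and 0.325 FPKM in WT. HOXC11, between HOXC10 and HOXC12 on the chromosome, had 0.0874 and 0.206 FPKM in KO, against 0.436 and 0.467 FPKM in WT. HOXD13, a gene of the digits, had 0 and 1 read in KO, against 14 reads in each WT library, where 3 reads corresponded to at most 0.0817 FPKM. The other untested members with reads, HOXA4, HOXA9, HOXA11, HOXC5, HOXD1, HOXD3, HOXD4, HOXD9, HOXD10 and HOXD11, stayed at or below 0.455 FPKM in every library. Of these, HOXA4 had 8 and 10 reads in KO and 5 and 10 reads in WT.

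Of 19 noncoding RNAs transcribed within the clusters, 8 were tested, 3 were called higher in KO and 1 lower, where 12.1% and 11.1% of all genes tested were. With 8 tested genes these counts are a description, and HOXA-AS2 and HOXC13-AS passed the filter only through the group where each was high. HOXA-AS2, antisense to HOXA3 and HOXA4, had 1.99 and 2.42 FPKM in KO, against 0.519 and 0.589 FPKM in WT (log2 change 1.04, SE 0.17, adjusted p = 0.0129). HOXB-AS3, which overlaps HOXB5 and HOXB6, had 5.28 and 9.35 FPKM in KO, against 3.24 and 2.81 FPKM in WT (log2 change 1.01, SE 0.25, adjusted p = 0.0419). Both RNAs were higher in both KO libraries, HOXB-AS3 with a wide spread within KO. HOTAIRM1, at the anterior end of HOXA, had 4.31 and 5.92 FPKM in KO, against 2.93 and 2.77 FPKM in WT (log2 change 0.65, SE 0.17, adjusted p = 0.0465). HOXC13-AS, antisense to HOXC13 with 172 shared exon bases, had 0.406 and 0.694 FPKM in KO, against 2.49 and 2.12 FPKM in WT (log2 change -1.10, SE 0.18, adjusted p = 0.0137). It was lower in both KO libraries. HOTAIR and HOTTIP, noncoding RNAs of the posterior HOXC and HOXA ends, stayed at or below 0.539 and 0.202 FPKM and were not tested. Without WT replicate 1 none of the 4 RNAs was called (adjusted p = 0.0564 for HOXA-AS2, 0.113 for HOXB-AS3, 0.182 for HOTAIRM1 and 0.0589 for HOXC13-AS). HOXB-AS3 and HOTAIRM1 were also not called without WT replicate 2 (0.145 and 0.199) or KO replicate 2 (0.0603 and 0.107), nor HOTAIRM1 with quantile normalization, scaling by total reads, no intensity trend or limma voom (adjusted p = 0.0506 to 0.0578).

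**Figure D4:**
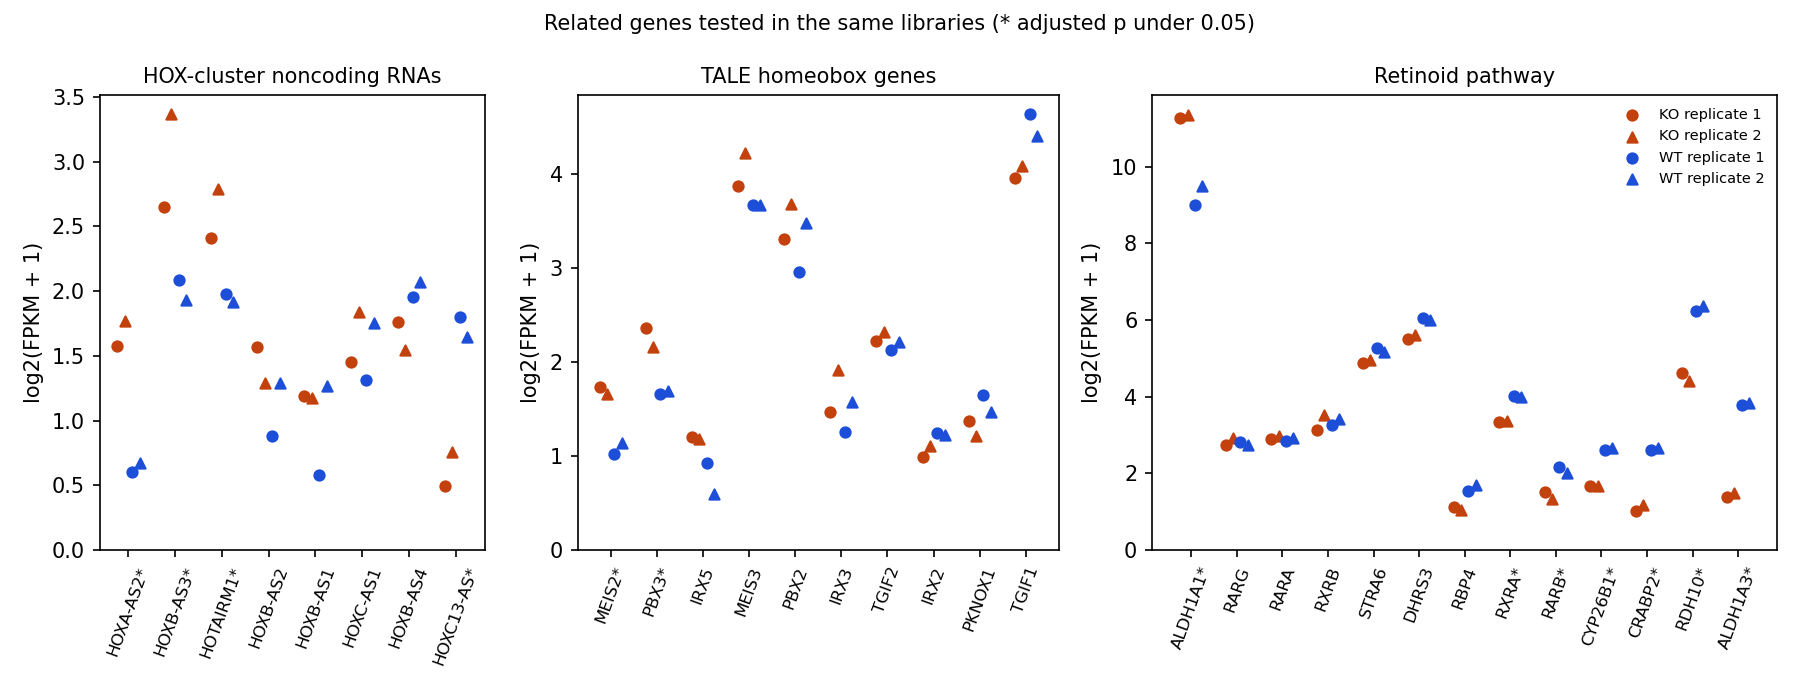
Levels as log2(FPKM + 1) of tested noncoding RNAs of the HOX clusters, TALE homeobox genes and retinoid pathway genes, with KO marks (red-brown) left of WT marks (blue) and an asterisk at an adjusted p under 0.05. HOXA-AS2, MEIS2 and ALDH1A1 are higher in both KO libraries, and HOXC13-AS, RDH10 and ALDH1A3 lower.

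HOX proteins bind DNA with cofactors of the TALE homeobox class, mainly PBX and MEIS proteins. Of 18 TALE genes 11 were tested, 3 were called higher in KO and 0 lower, 27.3% in all, beside 23.3% of all genes tested. In the lower direction 1 passed an unadjusted p under 0.05 and 1 passed limma voom. MEIS2 had 2.33 and 2.15 FPKM in KO, against 1.04 and 1.20 FPKM in WT, and PBX3 4.14 and 3.48 FPKM in KO, against 2.17 and 2.22 FPKM in WT (adjusted p = 0.0392 for each). MEIS1, a frequent partner of posterior HOX proteins, was at or below 0.313 FPKM in every library. With any 1 library left out MEIS2 and PBX3 were not called (adjusted p = 0.0796 to 0.208 for MEIS2 and 0.0522 to 0.213 for PBX3).

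Polycomb proteins keep HOX genes silent and trithorax proteins keep them active. All 32 Polycomb genes were tested, 5 were called higher in KO and 1 lower, 18.8% in all, below the 23.3% of all genes tested. EZH2, the histone methyltransferase of the complex, had 12.3 and 12.8 FPKM in KO, against 4.30 and 4.49 FPKM in WT (log2 change 1.33, SE 0.13, adjusted p = 0.00433). The others called higher were RBBP7, PHF19, CBX2 and MTF2, with log2 changes of 0.84, 0.97, 0.74 and 0.53, and PHC2 was lower, with one of -0.67. SUZ12 and EED, which are among the partners of EZH2, were not called. Of 18 trithorax genes, all tested, 11.1% were called in all: PSIP1 was called higher (20.9 and 18.9 FPKM in KO, against 11.6 and 10.7 FPKM in WT) and KDM6B, a demethylase of the mark that EZH2 makes, lower (4.41 and 4.97 FPKM in KO, against 8.11 and 7.63 FPKM in WT).

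Retinoic acid is a known inducer of HOX genes, anterior ones first. Of 21 retinoid pathway genes 13 were tested, 1 was called higher in KO and 6 lower, 53.8% in all, beside 23.3% of all genes tested. ALDH1A1, which makes retinoic acid and oxidises many other aldehydes, had 2465 and 2618 FPKM in KO, against 515 and 718 FPKM in WT (log2 change 2.06, SE 0.24, adjusted p = 0.00628). ALDH1A3, another enzyme of that step, had 1.60 and 1.82 FPKM in KO, against 12.8 and 13.2 FPKM in WT, and RDH10, which makes its substrate, 23.5 and 20.1 FPKM in KO, against 74.6 and 81.1 FPKM in WT. CRABP2, CYP26B1, RARB and RXRA, which bind, degrade and sense retinoic acid, were also lower in KO, with log2 changes of -1.53, -0.96, -0.67 and -0.65. None of the 15 inducers of axial HOX order in the embryo was called in either direction. CDX1, CDX4, TBXT, MSGN1 and FGF4 had no read, and 3 were tested, NR6A1, GDF11 and TBX6, of which TBX6, tested through its WT values alone, passed an unadjusted p under 0.05 and limma voom as lower in KO.

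Other transcription factors known for regional identity were read beside the HOX genes. Of 55, 26 were tested, 3 were called higher in KO and 5 lower, 30.8% in all, beside 23.3% of all genes tested. TBX4, BARX1 and PAX2 passed the filter only through their WT values, where they were high. TBX4, a gene of lung mesenchyme and hindlimb, had 0.157 and 0.122 FPKM in KO, against 1.25 and 1.27 FPKM in WT (log2 change -0.99, SE 0.17, adjusted p = 0.0160). SOX9, EN2, BARX1 and PAX2 were also lower, with log2 changes of -1.51, -1.22, -0.96 and -0.71. ALX1, known in craniofacial mesenchyme, was higher, at 18.1 and 16.9 FPKM in KO, against 7.24 and 10.8 FPKM in WT, as were MSX2 and TBX3. PITX1, a hindlimb gene and the most abundant factor of the list among those not called, had 13.5 and 14.6 FPKM in KO and 13.2 and 10.8 FPKM in WT, whereas TBX5, a gene of lung, heart and forelimb, had no read in any library. The factors present are known from several body regions, as are the HOX genes present.

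Genes that flank the HOX clusters were read beside them. Of 26 neighbours 20 were tested, 3 were called higher in KO (CBX5, TTLL6 and HIBADH) and 2 lower (NFE2L1 and SMUG1), 25% in all and close to the 23.3% of all genes tested. TTLL6, beyond HOXB13, had 4.69 and 5.15 FPKM in KO, against 2.36 and 2.65 FPKM in WT, while NFE2L1, beyond the anterior end of HOXB, had 27.3 and 31.2 FPKM in KO, against 84.1 and 75.5 FPKM in WT. Near HOXC, CBX5 had 36.6 and 22.7 FPKM in KO, against 13.5 and 15.1 FPKM in WT, and SMUG1 3.66 and 3.55 FPKM in KO, against 6.27 and 6.52 FPKM in WT.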

How the data were processed

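RNA of 2 KO and 2 WT libraries of HFL1 cells was sequenced from both ends of each fragment, per the labels' protocols. The aligner was HISAT2 2.0.5, and the builds named are hg38 and mm10, per the submitters' processing notes. The authors deposited 1 FPKM value per gene and library, and the counting tool and strand setting were not given in the sources used here. Gene coordinates equalled those of GENCODE 29 on GRCh38 for all 58735 genes. FPKM multiplied by gene length gave whole reads, within 0.05, for 100% of values, and the depth given is that of these recovered reads. The authors' scaling divisor was 0.986 to 1.03 times the recovered reads.

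Values were analysed as log2(FPKM + 1) with limma 3.58.1 in R 4.3.3 with an intensity trend. Genes with at least 1 FPKM in at least 2 libraries were tested (14100), without a replicate block, and a call needed an adjusted p (Benjamini-Hochberg) below 0.05. Log2 changes are KO minus WT on this scale, which understates them for low genes, and a fold is mean FPKM of one group over the other. A floor is 3 reads per library and covers counting error only. Limma voom on the recovered reads was an alternative, which called 3 HOX genes higher and 3 lower. The fit was tested on simulated data.

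The HOX genes tested are named, and some genes and sequences that these rules pick are not reported here. Of each other list the called members are named, up to 6 by size of change, or the most abundant 3 where fewer than 2 were called, and others named (MSX2, TBX3, RXRA, SUZ12, EED, MEIS1, HOTAIR, HOTTIP, PITX1, TBX5, the cell type markers and the inducers without reads) were chosen after their values were seen. The HOX genes and all lists were chosen with earlier results of these data known. Exon overlaps and homeobox identities were computed from the GENCODE reference with Python 3.11.15 and Biopython 1.88.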

Additional observations from a re-analysis of the deposited data

How the results depend on the processing

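Of the 22 HOX genes tested, none that was called changed sign under any alternative. The count called higher in KO was 2 and that called lower 3. With limma and no filter on low values both counts were 0, with 8 and 6 genes at an unadjusted p under 0.05. Leaving out 1 library gave 0 to 2 called higher and 0 to 2 called lower. A replicate block gave 6 called higher and 4 called lower, adding HOXB8, HOXA3, HOXA5 and HOXA2 as higher and HOXB9 as lower (adjusted p = 0.0155 to 0.0462). The replicate numbers are a shared number only: differences between replicates 1 and 2 in KO and in WT correlated at 0.411 across 14100 genes, and 2 pairs do not show pairing. Over all genes, 1711 were called higher and 1572 lower, against 183 and 193 with no filter, 2968 and 2577 with the block, and 505 to 1321 and 537 to 1260 without 1 library. In the related lists pooled, an alternative chosen after seeing the data, 19 were called higher and 16 lower, against 1 and 5 with no filter, 26 and 32 with the block, 25 lower with limma voom, and 3 to 13 and 6 to 18 without 1 library. Without WT replicate 1 or 2, most named list genes lost their calls, while EZH2, ALDH1A1, ALDH1A3, RDH10, CRABP2, SOX9 and NFE2L1 kept theirs without any 1 library. Pseudocounts of 0.1 and 0.5, quantile normalization, scaling by total reads and no intensity trend left all 22 HOX genes on the same side of the threshold. Cluster sums moved by less than the spread between replicates with scaling by total reads. The gap between the HOXB sums of KO replicate 1 and WT replicate 2 is also smaller than that spread. The number of HOX genes past the level threshold was 24 at 0.5 FPKM, 32 at 0.1 FPKM and 15 at 2 FPKM, against 22 at 1 FPKM. HOX genes below the filter were given as values without a call, since a few reads per library limit their precision.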
